A study of Mus musculus with 27 samples.

Results

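The genes described here are 7 kallikrein-related serine proteases (Klk5, Klk6, Klk7, Klk8, Klk10, Klk11 and Klk13), the aspartic protease Asprv1, the cysteine protease Casp14 and Spink5, which encodes an inhibitor of kallikreins. They were listed by name and make up 10 of the 50559 genes of the deposited count table, and each was followed over the 9 groups of day and dose. The list was chosen by what the proteins do and by a measured value, the lower level of Asprv1 after 7 Gy at day 7, with other results of these data known. That contrast is given for Asprv1 as a description without a test. The question was whether the other proteases and Spink5 moved with it.

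Proteases of the upper squamous layers act late in the life of a keratinocyte, when junction proteins between dying cells are cleaved and barrier proteins are processed. Kallikreins are secreted as inactive precursors and cut the proteins that hold cornified cells together, while the inhibitor encoded by Spink5 restrains them, and loss of that inhibitor in people causes Netherton syndrome. Asprv1 and Casp14 take part inside the cell in the processing of filaggrin, and in healthy thyroid follicles none of these proteases is a defining product.

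The study grew organoids from the thyroid gland of C57BL/6 mice aged 8 to 12 weeks and sequenced the 3′ ends of their transcripts in 27 libraries, 3 for each group. Every group grew in Matrigel with EGF, FGF2, B27 and the ROCK inhibitor Y-27632, so no group shows the cells without these agents. Irradiated organoids received photons at 2, 4 or 7 Gy on day 5, and libraries were made at day 5 without irradiation and at days 7 and 11 at 0, 2, 4 and 7 Gy, 2 and 6 days after exposure. The study's design text names 4 mice, the sample titles number 3, and the columns of the table carry 3 culture names, mTG11, mTG12 and mTG14. No label links a culture name to a numbered mouse.

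The 3 values given for a group are in the order mTG11, mTG12, mTG14 unless a sentence says otherwise. Levels are CPM, counts scaled to a library total of 1000000, with mean ± SD over 3 libraries where a mean is given. Library totals ran from 2528866 to 5723150 counts, and 3 counts, taken as the smallest detectable amount, stood for 0.524 to 1.19 CPM in a single library. Intervals and floors cover counting error only.

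The thyroid label was checked against marker genes. Over all 27 libraries Tg had 277 counts, with no library above 16.7 CPM, Hhex 28, Pax8 23.19, Tshr 11 and Slc5a5 6, while the transcription factor genes Foxe1 and Nkx2-1 averaged 29.8 and 12.5 CPM. The basal keratin gene Krt5 averaged 4041 CPM and the suprabasal keratin gene Krt13 averaged 3699 CPM. Tshr and Slc5a5, which mark hormone-making follicles, were thus at or near the floor. Duox2, which acts in hormone synthesis, was not: it averaged 27.6 CPM, up to 93.8 CPM in a day 11 library. Keratin genes of a stratified epithelium were counted throughout.

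Of the 10 genes, 8 had counts in at least 24 of the 27 libraries. Klk5, a trypsin-like protease of desquamation, had 1 count in all, in the mTG14 library at 0 Gy day 5, and was not tested in any comparison. Klk6, another trypsin-like kallikrein, had 81 counts in 16 libraries, of which 54 lay in the day 5 group. Casp14 had 254 counts in 27 libraries, of which 114 lay at day 5. Fractional values mark reads shared between genes: of the values above 0, 22.2% were whole numbers for Spink5, 44.4% for Klk11, 58.3% for Klk7, 77.8% for Klk13, 81.5% for Klk8, 92.6% for Klk10 and 100% for Klk5, Klk6, Asprv1 and Casp14. Levels of the genes with few whole values are uncertain to the extent of the shared reads. A long non-coding RNA on the opposite strand, 2310002F09Rik, shares 457 exon bases with Klk8 and 202 with Klk11 and averaged 2.02 CPM, with no library above 5.19 CPM. Whether counting used the strand is not stated.

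**Figure D1:**
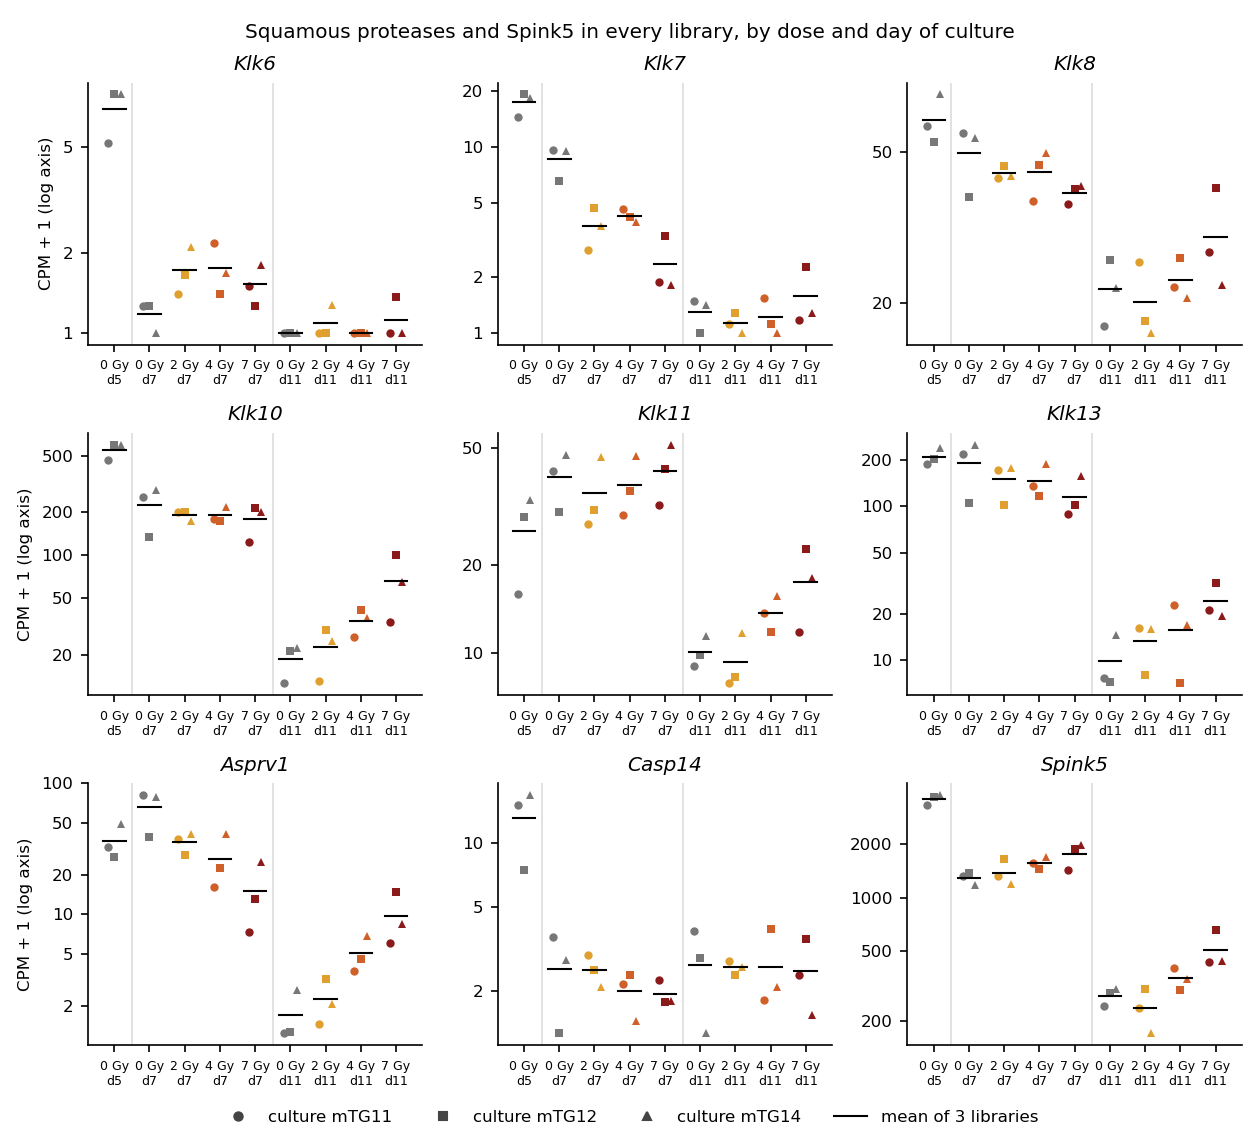
Each point is the level of 1 gene in 1 library, in CPM plus 1 on a log axis, for the 9 groups of day and dose, and each bar is the mean of 3 libraries; Klk5, with 1 count in all, is not drawn. Without irradiation, the Spink5 libraries lay at 3355 to 3810 CPM at day 5 and at 242 to 302 CPM at day 11.

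Without irradiation the comparison of days asks how these genes change as the organoids grow. In edgeR's quasi-likelihood test, with a call at an adjusted p below 0.05 over 18442 genes, 2 of the 9 members tested rose and 5 fell from day 5 to day 7, where 12% of all tested genes rose and 9.62% fell. From day 7 to day 11, 0 rose and 7 fell, beside 9.57% of genes rising and 11.7% falling. From day 5 to day 11, 0 rose and 9 fell, beside 21.3% rising and 20.1% falling. The 0 Gy day 7 libraries are among those that chose Asprv1, so it is set aside in the first 2 comparisons: 1 of 8 rose and 5 fell, then 0 rose and 6 fell. With Asprv1 counted, DESeq2 called 7, 7 and 9 members in these 3 comparisons. At an unadjusted p below 0.05 the counts were also 7, 7 and 9, beside 6231, 6205 and 9066 of 18442 genes. Klk6 passed the minimum of 10 counts through its day 5 libraries, so its lower later level is partly built into passing. Without Klk6 as well, 1 of 7 rose and 4 fell from day 5 to day 7, and from day 5 to day 11 all 8 others fell.

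Klk7, a chymotrypsin-like kallikrein that cleaves junction proteins of cornified cells, stood at 13.4, 18.1 and 17.2 CPM at day 5, at 8.60, 5.57 and 8.49 CPM at day 7 and at 0.476, 0 and 0.412 CPM at day 11. The 3 days did not overlap. It fell from day 5 to day 7 (log2 fold change -0.95, SE 0.251, edgeR adjusted p 0.0176) and from day 7 to day 11 (-4.33, SE 0.466, edgeR adjusted p 4.71e-05). The first of these calls was lost without the mTG12 library of day 5 (-0.88, edgeR adjusted p 0.0632) or the mTG14 library of day 5 (-0.91, 0.0656). It was also lost without the mTG12 library of day 7 (-0.78, edgeR adjusted p 0.0628). With the culture added to the fit as a block the call held (-0.95, edgeR adjusted p 0.0105).

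Klk10, a kallikrein whose substrates are poorly known, stood at 464, 597 and 590 CPM at day 5. At day 7 it was at 257, 133 and 288 CPM, with the mTG12 library lowest, and at day 11 it was at 11.7, 20.1 and 21.4 CPM. No library of one day overlapped another day. It fell at both steps, with a log2 fold change of -1.13 to day 7 (SE 0.242, edgeR adjusted p 0.00586) and of -3.69 from there to day 11 (SE 0.297, edgeR adjusted p 6.26e-06).

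Klk13, a trypsin-like kallikrein, stood at 189, 204 and 239 CPM at day 5 and at 220, 104 and 252 CPM at day 7. These groups overlapped, with the mTG12 library of day 7 below all others, and the log2 change of 0.015 (SE 0.271, edgeR adjusted p 0.98) took either sign when the processing was changed. At day 11 the libraries were at 6.67, 6.17 and 13.6 CPM, apart from both earlier days. Klk13 fell from day 7 to day 11 (log2 fold change -4.45, SE 0.362, edgeR adjusted p 6.67e-06).

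Klk8 and Klk11 are both secreted trypsin-like proteases, and a difference between them was not tested. Klk8 ran from 52.1 to 69.8 CPM at day 5 and from 37.1 to 55.2 CPM at day 7, overlapping (log2 fold change -0.16, SE 0.173, edgeR adjusted p 0.571). Klk11 stood at 14.9, 28.1 and 32.2 CPM at day 5 and at 40.6, 29.3 and 46.1 CPM at day 7, which overlap through the mTG12 library of day 7 alone. It rose (0.77, SE 0.239, edgeR adjusted p 0.038). The change stayed positive but missed the threshold without library scaling by TMM factors (0.62, edgeR adjusted p 0.0857) and in a fit of these 2 groups alone (0.76, edgeR adjusted p 0.0561). The same held without the day 5 libraries of mTG11 (0.52, edgeR adjusted p 0.109) or mTG12 (0.83, 0.0666). It held too without the day 7 libraries of mTG11 (0.76, edgeR adjusted p 0.0824) or mTG14 (0.59, 0.143). With the culture added to the fit as a block Klk11 was still called (0.79, edgeR adjusted p 0.0050). By day 11 both had fallen from day 7 with no overlap, Klk8 with a log2 fold change of -1.23 (SE 0.188, edgeR adjusted p 0.000611) and Klk11 with -2.09 (SE 0.266, edgeR adjusted p 0.000163). Klk8 then lay at 16.4 to 24.9 CPM and Klk11 at 8.09 to 10.4 CPM.

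Klk6 had 12, 18 and 24 counts at day 5, 1, 1 and 0 counts at 0 Gy day 7 and none at 0 Gy day 11. The day 5 level was 34.3 times that of day 7, with a 95% counting interval of 9.06 to 291. At day 11 it was at least 23.0-fold lower than at day 5, taking 3 counts over the group as the floor. Klk6 was thus detectable mainly at the earliest day, and day 7 groups held 2, 7, 9 and 6 counts at 0, 2, 4 and 7 Gy. Every library at 2 and 4 Gy lay above those at 0 Gy, but the ratios of 4.08 and 4.02 had counting intervals of 0.777 to 40.3 and 0.833 to 38.3, which include 1.

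Asprv1, the retroviral-like aspartic protease that cleaves profilaggrin, stood at 31.4, 26.2 and 47.6 CPM at day 5 and at 80.2, 38.2 and 77.5 CPM at day 7, overlapping only through the mTG12 library of day 7. At day 11 it had 1, 1 and 6 counts, or 0.238, 0.268 and 1.65 CPM, far below both. The log2 difference from day 5 to day 7 was 1.03 (SE 0.288). It is given as a description, because its 0 Gy day 7 libraries are among those that chose the gene. From day 5 to day 11, a comparison that shares no library with the one that led to the list, Asprv1 fell (-5.47, SE 0.566, edgeR adjusted p 1.06e-05), and the value was -6.83 without the mTG14 library of day 11. The difference from day 7 to day 11 (-6.49, SE 0.516, or -7.86 without that library) rests on the same 0 Gy day 7 libraries as the contrast that led to the list, and is a description too.

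Casp14, a caspase of cornified cells, stood at 14.1, 6.46 and 16.0 CPM at day 5 (41, 17 and 56 counts), above every library of day 7 and day 11. It fell to 2.61, 0.265 and 1.80 CPM at day 7 (log2 fold change -2.81, SE 0.570, edgeR adjusted p 0.00436). Its mean level in the 8 later groups ran from 0.941 to 1.67 CPM with overlapping neighbours, and a group held 11 to 24 counts, so no dose difference was detectable at this depth. It fell from day 5 to day 11 (-2.69, SE 0.560, edgeR adjusted p 0.00218), with -3.32 without the mTG11 library of day 11.

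Spink5 stood at 3355, 3725 and 3810 CPM at day 5, at 1318, 1379 and 1181 CPM at day 7 and at 242, 288 and 302 CPM at day 11. The days did not overlap and the libraries of a day lay close together. It fell to day 7 (log2 fold change -1.34, SE 0.101, edgeR adjusted p 7.64e-06) and from there to day 11 (-2.22, SE 0.105, edgeR adjusted p 1.57e-07). In bulk RNA, fewer squamous cells and less of each transcript per cell cannot be told apart.

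Markers of several cell types moved over the same days. From day 5 to day 7 the summed basal level went from 13417 to 16327 CPM to 10508 to 12383 CPM, with 1 of 6 rising. The secretory sum went from 167 to 656 CPM to 923 to 1622 CPM and the C cell sum from 5.52 to 13.7 CPM to 18.3 to 39.2 CPM, with Ltf and Calcb most abundant, 1 of 6 and 1 of 2 tested rising, and no overlap. Suprabasal sums overlapped, with 3 of 9 rising and 3 falling. The immune sum, led by Cd68, went from 5.52 to 16.3 CPM to 17.9 to 30.6 CPM without overlap, with 1 of 3 tested rising, and 1 of 5 multiciliated markers rose. Of 5 tested thyroid follicular markers 0 were called. With the culture as a block 3 basal, 3 suprabasal, 1 secretory and 1 thyroid follicular marker fell. In that fit 1 basal, 2 secretory, 4 suprabasal and 1 thyroid follicular marker rose, beside 4607 of 18442 genes called.

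Markers also moved from day 7 to day 11 at 0 Gy. The summed level of 9 suprabasal squamous markers was 5140, 8166 and 8566 CPM in the day 7 libraries, in rising order, and 3356, 3364 and 4511 CPM at day 11, with Krt13 most abundant and 0 of 9 rising and 5 of 9 falling. Of 6 basal markers, 0 rose and 5 fell, and their sum went from a median of 10764 to 5099 CPM, with Krt5 most abundant. All 5 multiciliated markers rose, led by Foxj1, from a summed median of 4.77 to 57.4 CPM. Of 5 tested thyroid follicular markers 2 rose, 1 of 6 secretory markers rose and 1 fell, and 2 of 6 fibroblast markers fell. The summed secretory level, with Ltf most abundant, went from a median of 1127 to 7435 CPM. The median log2 fold change over the 6 secretory markers was -0.72. With the culture as a block 6 suprabasal, 2 secretory and 4 fibroblast markers fell. Calcb fell alone of 2 tested C cell markers and Cd68 rose alone of 3 tested immune markers, with Cd3e at 0 counts. The endothelial and parathyroid genes Cldn5 and Gcm2 had 0 counts, and the most abundant of those lists, Pecam1 and Pth, averaged 0.380 and 0.438 CPM. The part of these markers in the fall of the proteases was not tested.

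At day 7 the comparison of 7 Gy with 0 Gy asks whether the other proteases and the inhibitor move with Asprv1. For Asprv1 the libraries stood at 80.2, 38.2 and 77.5 CPM at 0 Gy and at 6.27, 12.1 and 23.9 CPM at 7 Gy, without overlap. The log2 difference was -2.23 (SE 0.421), and -2.85 to -1.86 leaving out 1 library, given as the description that chose it. Among the 8 other members tested, edgeR called 0 higher and 1 lower, beside 3.2% of 19346 genes higher and 3.75% lower. DESeq2 called 2 of the 8, and 4 had an unadjusted p below 0.05, as had 4112 of the 19346 genes.

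The member called was Klk7, which stood at 8.60, 5.57 and 8.49 CPM without irradiation and at 0.877, 2.31 and 0.798 CPM after 7 Gy. Every irradiated library lay below every unirradiated one, on 87 counts against 15.5. Klk7 fell by 2.44 on the log2 scale (SE 0.371, edgeR adjusted p 0.00147), and it fell in each of the 12 fits that left out 1 library, with values from -3.01 to -2.19 and an adjusted p of 0.0101 at most.

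Klk13 stood at 87.7, 100 and 156 CPM after 7 Gy, against 220, 104 and 252 CPM at 0 Gy. The groups overlapped through the mTG12 library at 0 Gy. In the fit by group alone Klk13 was not called (log2 fold change -0.75, SE 0.316, edgeR adjusted p 0.184). Cultures pair the libraries across groups, and with the culture as a block it was (-0.71, edgeR adjusted p 0.00747). Without the mTG12 library at 0 Gy it was called as well (-1.04, edgeR adjusted p 0.0483). Over the 12 fits that left out 1 library its change ran from -1.05 to -0.47 (edgeR adjusted p 0.508 at most). Klk8 lay at 35.5, 39.1 and 39.6 CPM after 7 Gy against 55.2, 37.1 and 53.3 CPM (-0.36, SE 0.152, edgeR adjusted p 0.187). It overlapped through the mTG12 library at 0 Gy and was called without that library (-0.51, edgeR adjusted p 0.0438). Over the fits that left out 1 library Klk8 ran from -0.51 to -0.26 (edgeR adjusted p 0.447 at most).

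Klk10 and Klk11 were not called at 7 Gy in the fit by group alone or with the block. Klk10 stood at 123, 215 and 200 CPM against 257, 133 and 288 CPM. The mTG12 pair moved up and the other pairs down (log2 fold change -0.35, SE 0.244, edgeR adjusted p 0.453). Without a filter on low counts the edgeR adjusted p of Klk10 was 0.0248, but no result rests on that setting. Klk11 stood at 31.0, 41.1 and 50.1 CPM against 40.6, 29.3 and 46.1 CPM (0.061, SE 0.240, edgeR adjusted p 0.917), and its sign turned without the mTG12 library at 0 Gy (-0.099) or the mTG14 library at 7 Gy (-0.13). Neither p shows that the level stayed the same.

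Spink5 did not move with Asprv1: it stood at 1425, 1871 and 1978 CPM after 7 Gy, above all unirradiated libraries at 1318, 1379 and 1181 CPM. The difference of 0.44 (SE 0.137) missed the threshold in the fit by group alone (edgeR adjusted p 0.0742). It passed with the culture as a block (0.43, edgeR adjusted p 0.0309), with DESeq2 (adjusted p 0.0295), and without the mTG11 library at 7 Gy (0.57, edgeR adjusted p 0.0378) or the mTG12 library at 2 Gy (0.44, edgeR adjusted p 0.0419). Over the fits that left out 1 library Spink5 ran from 0.33 to 0.57 (edgeR adjusted p 0.234 at most). The inhibitor and Klk7 thus lay on opposite sides of their unirradiated libraries.

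The summed suprabasal markers overlapped between doses at day 7, at 4768, 7482 and 8661 CPM after 7 Gy and 5140, 8166 and 8566 CPM without, both in rising order. Within that list, 1 of 9 rose and 3 fell. Summed basal markers were 11717 to 14576 CPM after 7 Gy and 10508 to 12383 CPM without, with 0 of 6 rising and 1 falling, and 1 rising with the culture as a block. The 4 C cell markers, led by Calcb, went from a summed median of 23.2 to 88.2 CPM with 1 rising. With the block 1 secretory and 1 fibroblast marker rose. Their part in the protease values was not tested.

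Lower doses at day 7 gave 0 calls among the 8 tested members other than Asprv1, at 2 Gy beside 0.119% of genes higher and 0.00517% lower, and at 4 Gy beside 0.972% higher and 0.656% lower. By edgeR, 1 of these, Klk7, had an unadjusted p below 0.05 at each dose, beside 1629 and 2901 of 19346 genes, and DESeq2 called 0 at each. The doses share their 0 Gy libraries, and so the values stand side by side and each dose is not a separate check.

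Klk7 stood at 1.78, 3.70 and 2.74 CPM at 2 Gy and at 3.64, 3.19 and 2.94 CPM at 4 Gy. Both groups lay below all 3 unirradiated libraries. The log2 difference was -1.41 at 2 Gy (SE 0.338, edgeR adjusted p 0.212) and -1.28 at 4 Gy (SE 0.317, edgeR adjusted p 0.0631). At 4 Gy it passed with the culture as a block (-1.29, edgeR adjusted p 0.0244), with a filter by group (0.0488) and in a fit of both groups alone (0.0388). It also passed, by edgeR adjusted p, without the 2 Gy libraries of mTG11 (0.0490) or mTG12 (0.0457) or the 7 Gy library of mTG12 (0.0405). In the same comparison the C cell sum was 45.2 to 63.5 CPM against 18.3 to 39.2 CPM, without overlap, with 1 of 4 rising. Of 6 basal markers 1 fell, and of 9 suprabasal markers 1 fell. With the block 3 suprabasal and 1 basal marker fell, and 1 suprabasal and 1 basal marker rose. Their part was not tested.

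Spink5 at 4 Gy, at 1578, 1442 and 1692 CPM, lay above all 0 Gy libraries and was not called (0.24, SE 0.137, edgeR adjusted p 0.454). Asprv1 stood at 36.8, 27.4 and 40.2 CPM at 2 Gy and at 15.2, 21.4 and 40.1 CPM at 4 Gy. Each dose overlapped 0 Gy through the mTG12 library at 0 Gy, though each culture was lower at each dose than at 0 Gy. The log2 difference was -0.96 at 2 Gy (SE 0.389) and -1.38 at 4 Gy (SE 0.389). These are descriptions, since the unirradiated libraries are those of the contrast that led to the list.

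**Figure D2:**
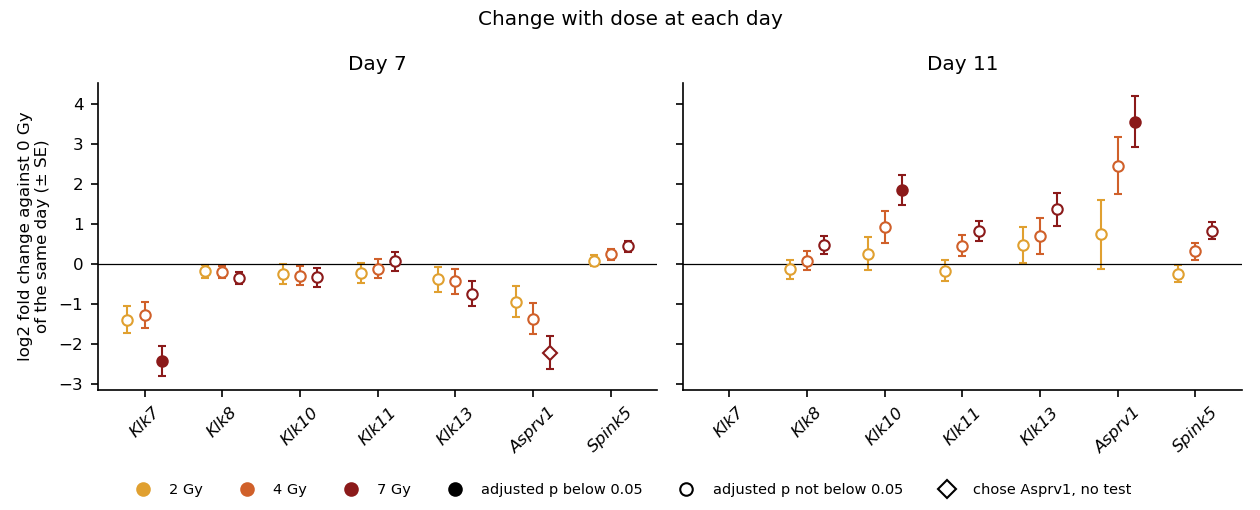
Points are edgeR log2 fold changes of 7 members against 0 Gy of the same day, coloured by dose in Gy, with bars of 1 SE on each side; filled points have an adjusted p below 0.05 and the diamond is Asprv1 at 7 Gy day 7, shown without a test. Asprv1 at 2 and 4 Gy day 7 shares the libraries that chose it and is a description too. Members with few counts are not drawn, nor is Klk7 at day 11. At 7 Gy, Klk7 stood at -2.44 at day 7, and Asprv1 and Klk10 stood at 3.55 and 1.84 at day 11.

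At day 11 the dose comparison asks the same question 6 days after exposure. After 2 Gy edgeR called 0 of 8 members, beside 0% of 19901 genes higher and 0% lower. No member had an unadjusted p below 0.05, DESeq2 called 0 members, and over all genes 1159 had an unadjusted p below 0.05 while DESeq2 called 1. After 4 Gy it called 0 of 8, beside 0.00502% higher and 0% lower, with 2 members and 1501 of all genes at an unadjusted p below 0.05 and 0 members by DESeq2. After 7 Gy edgeR called 2 of 8 higher and 0 lower, beside 1.06% higher and 0.462% lower, with 5 members and 2961 of all genes at an unadjusted p below 0.05 and 3 members by DESeq2.

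Asprv1 stood at 5.07, 13.7 and 7.37 CPM after 7 Gy at day 11, against 0.238, 0.268 and 1.65 CPM without irradiation. All irradiated libraries lay above all others, on 132 counts against 8. This comparison shares no library with the one that led to the list, and Asprv1 rose in it by 3.55 on the log2 scale (SE 0.627, edgeR adjusted p 0.0142). The call was lost without the unirradiated library of mTG11 (3.10, edgeR adjusted p 0.0617) or of mTG12 (3.18, edgeR adjusted p 0.0703). Without that of mTG14 the difference was 4.94. Asprv1 was still called with the culture as a block (3.54, edgeR adjusted p 0.000458). At 4 Gy it stood at 2.70, 3.60 and 5.80 CPM, again above every 0 Gy library, with a difference of 2.45 that missed the threshold (SE 0.702, edgeR adjusted p 0.384) and was 3.84 without the 0 Gy library of mTG14.

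Klk10 stood at 33.2, 99.2 and 63.6 CPM after 7 Gy at day 11, against 11.7, 20.1 and 21.4 CPM at 0 Gy. The groups did not overlap, and the mTG12 library was highest. Klk10 rose by 1.84 (SE 0.376, edgeR adjusted p 0.0272), but the call was lost without any 1 of the unirradiated libraries of mTG11 (0.121), mTG12 (0.0861) or mTG14 (0.0745) or the 7 Gy libraries of mTG12 (0.0911) or mTG14 (0.0670). The change ran from 1.42 to 2.17 when 1 library was left out. With the culture as a block the call held (edgeR adjusted p 1.15e-05). At 4 Gy Klk10 stood at 25.7, 40.3 and 35.3 CPM, above every 0 Gy library, and was called with the block (0.91, edgeR adjusted p 0.0229) but not without it (0.92, SE 0.392, edgeR adjusted p 0.628). In the same comparison the multiciliated sum, led by Foxj1, was 6.35 to 18.4 CPM against 27.8 to 58.3 CPM, without overlap. No marker was called without the block, and with it 4 of 5 multiciliated markers fell and 2 fibroblast markers rose, beside 238 of 19901 genes called, and their part was not tested.

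Klk11, Klk13 and Spink5 each lay higher in all 3 libraries at 7 Gy day 11 than in any at 0 Gy, and each missed the threshold without the block and passed with it. Klk11 stood at 10.8, 21.7 and 17.1 CPM against 8.09, 8.85 and 10.4 CPM (log2 fold change 0.81, SE 0.243, edgeR adjusted p 0.126, with the block 0.0289). Klk13 stood at 20.1, 31.0 and 18.3 CPM against 6.67, 6.17 and 13.6 CPM (1.36, SE 0.420, edgeR adjusted p 0.139, with the block 0.0367).

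Spink5 stood at 429, 651 and 434 CPM against 242, 288 and 302 CPM (0.82, SE 0.212, edgeR adjusted p 0.0756, with the block 0.0147, with DESeq2 0.00533). It also passed without TMM factors (0.0485), in a fit of both groups alone (0.0440), and without the 2 Gy libraries of mTG12 (0.0412) or mTG14 (0.0403), and Klk11 passed without the 7 Gy library of mTG11 (0.0462). Klk8 overlapped between doses, at 26.2, 39.2 and 21.3 CPM against 16.4, 24.9 and 20.9 CPM (0.46, SE 0.224, edgeR adjusted p 0.364). Klk7 and Klk6 were at or near the floor at day 11 in every dose group, with at most 9.03 and 2 counts in a group, and no difference was detectable.

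Among markers at day 11, 2 of 5 multiciliated genes fell after 7 Gy, and their summed level was 8.19, 10.2 and 21.3 CPM against 27.8, 57.4 and 58.3 CPM at 0 Gy, in rising order, with Foxj1 most abundant. Summed suprabasal markers stood at 3611, 5303 and 5945 CPM against 3356, 3364 and 4511 CPM in the same order, with 1 of 9 rising and 0 falling. Basal sums overlapped, at 5589 to 8250 CPM against 4677 to 6701 CPM, with 0 of 6 called. The C cell sum, led by Calcb, was 10.7 to 16.4 CPM against 3.02 to 5.95 CPM, without overlap, and 1 of 2 tested genes rose. With the culture as a block 4 multiciliated genes and 1 secretory marker fell, and 3 suprabasal, 1 basal and 3 of 6 fibroblast markers rose. Duox2 fell with the block (-0.78, edgeR adjusted p 0.000952) and was not called without it (-0.82, edgeR adjusted p 0.175). Their part in the higher protease levels was not tested.

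From day 7 to day 11 after 7 Gy, edgeR called 0 of 9 members higher and 4 lower, beside 6.17% of 21928 genes higher and 6.15% lower; DESeq2 called 4. Those that fell, each with no overlap, were Klk10 (log2 fold change -1.46, SE 0.318, edgeR adjusted p 0.00314), Klk11 (-1.30, SE 0.247, 0.00101), Klk13 (-2.30, SE 0.374, 0.000233) and Spink5 (-1.80, SE 0.193, 2.14e-06). Asprv1 overlapped between the days (-0.68, SE 0.462, and -1.17 to -0.040 leaving out 1 library). Its value is a description, since its 7 Gy day 7 libraries are among those that chose it. Without Asprv1 4 of 8 fell. Klk8 overlapped too (-0.38, SE 0.197, edgeR adjusted p 0.226) and was called without the mTG12 library at 7 Gy day 11 (-0.63, edgeR adjusted p 0.0484). Its change ran from -0.63 to -0.19 when 1 library was left out (edgeR adjusted p 0.635 at most).

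Markers moved in this comparison too. The secretory sum, with Ltf most abundant, went from 1518 to 1724 CPM to 4474 to 8121 CPM, with 1 of 6 rising. The median log2 fold change over the 6 secretory markers was -1.75. The C cell sum, led by Calcb, went from 77.2 to 89.9 CPM to 10.7 to 16.4 CPM, with 1 of 4 falling, and the basal sum, led by Krt5, from 11717 to 14576 CPM to 5589 to 8250 CPM, with 4 of 6 falling. The immune sum, led by Cd68, went from 21.6 to 34.7 CPM to 41.7 to 48.9 CPM, with 1 of 4 tested rising and 1 falling. The multiciliated sum went from 2.13 to 7.97 CPM to 8.19 to 21.3 CPM, with 0 of 5 called without the block. None of these sums overlapped. Of 7 tested thyroid follicular markers 1 rose. Of 9 suprabasal markers 1 rose and 3 fell. With the culture as a block 3 secretory, 5 basal, 4 suprabasal and 2 fibroblast markers fell and 3 multiciliated markers rose, beside 3766 of 21928 genes called, and their part was not tested.

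Whether the response to 7 Gy differed between the days was tested as an interaction, the log2 change with 7 Gy at day 11 minus that at day 7. Among the 8 members other than Asprv1 that were tested, edgeR called 2 positive and 0 negative, beside 2.22% of genes positive and 0.807% negative, and DESeq2 called 2. All 8 had a positive sign, a count that shares 0 Gy and 7 Gy libraries across members and is no test. For Asprv1 the difference was 5.82 (SE 0.868), or 7.18 without the 0 Gy day 11 library of mTG14, given as a description since the day 7 contrast led to the list.

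Klk10 had a difference of 2.22 (SE 0.478, edgeR adjusted p 0.00846), which passed in all 24 fits that left out 1 library, at adjusted p from 0.00154 to 0.0472. Klk13 had a difference of 2.15 (SE 0.574, edgeR adjusted p 0.0401), and 1.84 to 2.60 leaving out 1 library. That call was lost without any 1 of 8 libraries: at 0 Gy day 7 mTG11 (0.0787) or mTG14 (0.111), at 7 Gy day 7 mTG11 (0.0913) or mTG12 (0.0873), at 0 Gy day 11 mTG11 (0.138) or mTG12 (0.110), or at 7 Gy day 11 mTG11 (0.0549) or mTG12 (0.116). With the culture as a block the Klk13 call held (2.21, edgeR adjusted p 0.00168). Klk10 and Klk13 thus differed between days although neither was called at day 7 in the fit by group alone. By group alone Klk10 was called at 7 Gy day 11, and Klk13 was not (edgeR adjusted p 0.139). In the interaction test 1 of 6 basal and 2 of 9 suprabasal markers were called, all positive. With the block 1 basal and 3 suprabasal markers were positive and 1 of 7 thyroid follicular markers was negative. Their part was not tested.

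For Klk7, called at day 7, the difference of 3.18 (SE 1.05, edgeR adjusted p 0.118) rests on few counts at day 11, was 1.84 without the 7 Gy day 11 library of mTG12, and was not past the threshold, so a difference between the days was not shown. The same holds for Klk8 (0.85, SE 0.284, edgeR adjusted p 0.123), which passed without the mTG14 library at 7 Gy day 11 (1.03, edgeR adjusted p 0.0487), and for Klk11 (0.78, SE 0.372, edgeR adjusted p 0.343). For Spink5 the difference was 0.42 (SE 0.267, edgeR adjusted p 0.533), with a level above 0 Gy at both days.

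The 7 kallikrein members lie on the plus strand of chromosome 7 within 139 kb, at chr7:43361812-43500605 of GRCm39, in the order Klk13, Klk11, Klk10, Klk8, Klk7, Klk6, Klk5, with Klk12 and Klk9 between them and Klk14 before Klk13. Asprv1 lies at chr6:86595254-86606692 on the plus strand, Casp14 at chr10:78547825-78554138 on the minus strand and Spink5 at chr18:44096302-44155568 on the plus strand. Along the chromosome the log2 fold changes at 7 Gy day 7 were -0.75 for Klk13, -1.86 for Klk12, 0.061 for Klk11, -0.35 for Klk10, -1.94 for Klk9, -0.36 for Klk8 and -2.44 for Klk7. Klk12, Klk9 and Klk7 were called, with uncalled genes between them. Differences between neighbours were not tested.

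Of 6 other kallikrein genes in the table, Klk4 had no counts, Klk1 had 1 and Klk15 had 1.73, and the other 3 were tested. Klk9 ran from 12.5 to 23.9 CPM at 0 Gy day 7 and from 3.26 to 5.85 CPM after 7 Gy, without overlap, and fell (log2 fold change -1.94, SE 0.455, edgeR adjusted p 0.0196). Klk12 ran from 7.95 to 16.9 CPM and from 2.01 to 4.88 CPM, also without overlap, and fell (-1.86, SE 0.361, edgeR adjusted p 0.00676). Klk14, a trypsin-like activator of other kallikreins, ran from 145 to 331 CPM and from 59.7 to 176 CPM, overlapping (-1.30, SE 0.411, edgeR adjusted p 0.0768), and was called with the culture as a block (-1.34, edgeR adjusted p 0.000422). The median of the 3 was -1.86, beside 0.0084 over all tested genes.

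Their response also differed between days by the interaction for Klk9 (2.89, SE 0.754, edgeR adjusted p 0.0347) and Klk12 (3.27, SE 0.737, edgeR adjusted p 0.0126), while Klk14 (2.14, SE 0.670, edgeR adjusted p 0.0900) was called with the block only (2.32, edgeR adjusted p 0.00520). All 3 fell from day 7 to day 11 without irradiation, beside 11.7% of all genes falling. The log2 changes were -3.57 for Klk9, -3.16 for Klk12 and -3.93 for Klk14. At day 11 after 7 Gy, 0 of the 3 were called by edgeR, beside 1.06% of genes higher and 0.462% lower. Of these 3, 0 had an unadjusted p below 0.05, and 0 were called with the block, beside 1297 of 19901 genes.

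**Figure D3:**
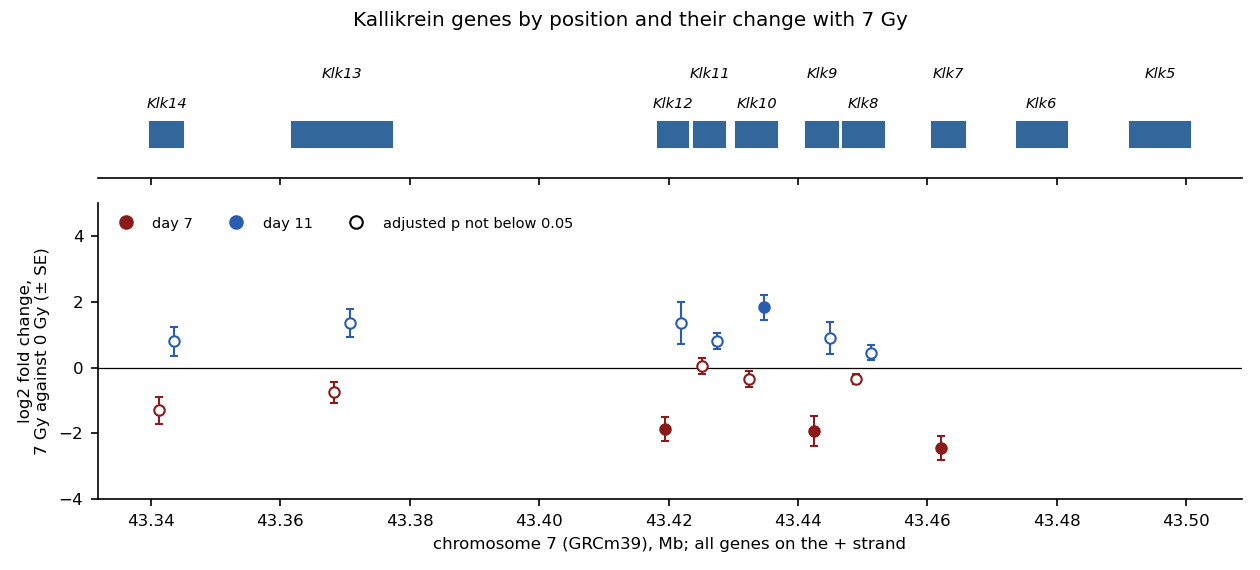
Boxes mark the positions of kallikrein genes from Klk14 to Klk5 on chromosome 7 (GRCm39, megabases), and points below them give the edgeR log2 fold change at 7 Gy against 0 Gy at day 7 and day 11, with bars of 1 SE on each side and filled points for an adjusted p below 0.05; Klk5, Klk6 and the day 11 value of Klk7 are not drawn. At day 7 Klk7, Klk9 and Klk12 stand at -2.44, -1.94 and -1.86.

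Promoters are printed for the members that moved with dose or differed between days (Klk7, Klk10, Klk13 and Asprv1) and for Klk8, as the 60 bases before the RefSeq gene start in build GRCm38.p6. By symbol 9 members had 11 promoters in that table. Capitals mark TTAAAA, a run of letters noticed after the windows were seen, searched on both strands. It occurs in Klk10 and Klk8 among the 9 genes and in 3.93% of 32851 promoters over the same length. The letters TGANTCA, the core bound by Fos and Jun proteins, searched on both strands over 250 bases before the start, occur in none of the 11 and in 6.75% of all. A match is a description of letters, and its absence says only that they are not in this window. The windows lie at chr7:43811234-43811293, chr7:43797517-43797576, chr7:43780994-43781053, chr7:43712507-43712566 and chr6:86628114-86628173, all on the plus strand.
Klk7: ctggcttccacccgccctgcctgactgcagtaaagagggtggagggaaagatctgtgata
Klk8: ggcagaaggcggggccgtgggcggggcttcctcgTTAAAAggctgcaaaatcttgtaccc
Klk10: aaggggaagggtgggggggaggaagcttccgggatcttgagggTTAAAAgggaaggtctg
Klk13: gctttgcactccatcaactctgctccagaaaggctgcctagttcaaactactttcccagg
Asprv1: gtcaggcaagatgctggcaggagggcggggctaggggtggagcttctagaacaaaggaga

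Lists of related genes, chosen for what their proteins do, are described by counts at 7 Gy day 7, where 3.2% of all tested genes rose and 3.75% fell, and 2193 of 19346 were called with the culture as a block. Of 16 other proteases of these layers, 5 rose and 1 fell, with a median log2 fold change of 0.17 beside 0.0084 over all tested genes. Plau, a plasminogen activator, ran from 23.5 to 29.4 CPM at 0 Gy and from 48.7 to 78.4 CPM after 7 Gy and rose by 1.25 (SE 0.200, edgeR adjusted p 0.00196). The others that rose were Prss23 (0.97), Ctsl (0.49), St14 (0.47) and Ctsd (0.42), and Blmh, which acts on filaggrin fragments, fell (-0.54). These 16 proteases thus had members on both sides, while the kallikrein genes called in this comparison, Klk7, Klk9 and Klk12, all fell.

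Of 14 tested protease inhibitors other than Spink5, 2 rose and 3 fell (median -0.34). Serpinb2 rose by 1.05 (SE 0.180, edgeR adjusted p 0.00307) and Cst6, an inhibitor of cathepsins and legumain, rose by 1.04 (SE 0.215, edgeR adjusted p 0.00953). Those that fell were Serpinb3a (-2.37, SE 0.583, edgeR adjusted p 0.0245), Serpinb12 (-2.21, SE 0.410, edgeR adjusted p 0.00530) and Wfdc5 (-1.32, SE 0.359, edgeR adjusted p 0.0399). Inhibitors were thus not uniform in direction, and with the culture as a block 5 fell, Slpi (-0.68) and Wfdc2 (-0.44) added.

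Of 13 tested substrates and receptors, 1 rose and 1 fell (median -0.40). The one that fell was Flg, whose product filaggrin is made from the precursor that Asprv1 cleaves. It had 186.42 counts over the 0 Gy group and 9 over the 7 Gy group, at 5.04 to 28.0 CPM and 0.501 to 1.03 CPM, without overlap (log2 fold change -4.33, SE 0.722, edgeR adjusted p 0.00256). Cldn1, of tight junctions, rose by 1.04 (SE 0.250, edgeR adjusted p 0.0219).

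Of 23 squamous differentiation markers, 2 rose and 3 fell (median -0.075), and with the culture as a block 4 rose and 4 fell. The cornified envelope gene Lor went from 40.8 to 122 CPM at 0 Gy to 7.77 to 20.0 CPM after 7 Gy and fell (-2.51, SE 0.395, edgeR adjusted p 0.00175). Crnn fell (-2.65, SE 0.616, edgeR adjusted p 0.0185), as did Krtdap (-1.43, SE 0.220, edgeR adjusted p 0.00158). Ivl rose by 0.82 (SE 0.153, edgeR adjusted p 0.00536) and Krt6a by 0.37 (SE 0.0940, edgeR adjusted p 0.0279).

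Of 20 transcription factor genes of these layers, 1 rose and 3 fell (median -0.16), and with the block 5 fell. Fos ran from 183 to 216 CPM at 0 Gy and from 29.5 to 40.4 CPM after 7 Gy without overlap, and fell (edgeR adjusted p 5.37e-07), while Fosl1 rose by 1.16 (SE 0.223, edgeR adjusted p 0.00650). Trp63 (-0.64, SE 0.105, edgeR adjusted p 0.00217) and Ehf also fell (-0.69, SE 0.164, edgeR adjusted p 0.0206).

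At 7 Gy day 11 the same lists gave few calls without the block, beside 1.06% of genes rising and 0.462% falling, and with the block 1297 of 19901 genes were called. Of 16 proteases, 0 were called by edgeR, with 5 at an unadjusted p below 0.05 and 3 with the block, all higher. Of 13 inhibitors Serpinb2 rose (0.85, SE 0.182, edgeR adjusted p 0.0318), with 4 rising and 1 falling with the block, and of 10 substrates 0 were called, with 5 at an unadjusted p below 0.05 and 3 with the block. Of 23 squamous markers, Cnfn (2.04, SE 0.343, edgeR adjusted p 0.0139) and Krtdap (1.78, SE 0.291, edgeR adjusted p 0.0123) rose and none fell, with a median of 0.44 beside 0.0055 over all genes, and with the block 11 rose. Of 20 transcription factor genes Fos fell (-1.34, SE 0.238, edgeR adjusted p 0.0142), and with the block 1 also rose.

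The difference between days at 7 Gy was positive for 2.22% of genes and negative for 0.807%, with 3091 of 21928 at an unadjusted p below 0.05 and 1156 called with the block. It was called for 5 of 23 squamous markers, and for 10 with the culture as a block, all positive. The 5 were Lor (4.99), Krtdap (3.24), Cnfn (2.31), Dmkn (1.67) and Elovl4 (1.53). Among 13 substrates it was called for Flg (4.08) and Dsg1b (5.58), which had 1 count at 0 Gy day 11, so the size for Dsg1b depends on how the fit treats near-empty groups. Among 16 proteases it was positive for Blmh (0.82) and negative for Ctsl (-0.66), and among 20 transcription factor genes positive for Trp63 (0.99) and Fos (1.19). With the block it was called for 3 substrates, 3 proteases and 3 transcription factor genes. Of 14 inhibitors 0 were called by edgeR, with 5 at an unadjusted p below 0.05 and 3 with the block. Without irradiation from day 7 to day 11, 15 of 23 squamous markers fell and 0 rose, 7 of 14 inhibitors fell and 3 rose, 3 of 16 proteases fell and 5 rose, 5 of 11 substrates fell and 3 rose, and 3 of 20 transcription factor genes fell and 7 rose, beside 9.57% of genes rising and 11.7% falling. With the block 4575 of 18442 genes were called, while 17 squamous markers, 7 inhibitors, 5 proteases, 7 substrates and 3 transcription factor genes fell, and 0, 6, 5, 3 and 8 rose.

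The order of mean levels over the 9 groups differed between members. For Spink5 the order began with 0 Gy day 5, at 3630 ± 242 CPM and apart from the rest, then ran 7, 4, 2 and 0 Gy at day 7, from 1758 ± 293 to 1293 ± 102 CPM with each neighbour overlapping. It continued apart with 7 Gy day 11 at 504 ± 127 CPM, apart again from 4, 0 and 2 Gy day 11, which overlapped. For Asprv1 it began with 0 Gy day 7 at 65.3 ± 23.5 CPM, then 0 Gy day 5, then 2, 4 and 7 Gy day 7, 7 Gy day 11 and 4 Gy day 11, each neighbour overlapping, and only then came 2 and 0 Gy day 11, apart from 4 Gy day 11 and overlapping each other. The place of 7 Gy day 7 in the order of Asprv1 is the value that chose it.

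For Klk7 the order was 0 Gy day 5, then 0 Gy day 7, each apart from the next, then 4, 2 and 7 Gy day 7 and all day 11 groups, overlapping from one to the next. Klk10 and Klk13 both ended with 7, 4, 2 and 0 Gy day 11 in that order, with each neighbour overlapping and 7 Gy day 11 apart from the groups of day 7 before it. Klk11 was highest at 7 Gy day 7, at 40.7 ± 9.59 CPM, and overlapped its neighbours down to 4 Gy day 11, which lay apart from 0 Gy day 11. Klk8 was highest at 0 Gy day 5, at 59.8 ± 9.10 CPM, and overlapped at every step except between 2 Gy and 7 Gy day 7. For Klk6 and Casp14 only 0 Gy day 5 stood apart.

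Likeness was measured as the Pearson correlation of log2 of CPM plus 1 over the 27 libraries, among 11593 genes averaging 5 CPM or more, and is a description: libraries share days, doses and cultures. The 6 members at that level correlated with each other at r from 0.793 (Klk8 with Klk11) to 0.960 (Klk10 with Spink5). The genes most like Klk10 were Fam25c (r 0.983), Dsg1b (0.980) and S100a9 (0.976), and those most like Klk13 were Klk14 (0.978), Calm4 (0.968) and Lce3b (0.964). For Asprv1 they were Ly6g6c (0.960), Gm3571 (0.949) and Lce3f (0.949), and for Spink5 they were Sfn (0.987), Krt6b (0.987) and Sprr1b (0.983). For Klk8 they were Lce3e (0.943), Cnot6 (0.942) and Calm4 (0.939), and for Klk11 they were Csta1 (0.945), Krt13 (0.940) and Rab24 (0.933). With Spearman's correlation the set of 3 names changed for 5 of the 6 members, and over group means for 6 of 6, while admitting genes averaging 1 CPM or more left all 6 sets as they were.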

How the data were processed

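The authors deposited estimated counts (expected counts) without normalization, listed by gene symbol, for 27 libraries made with Smart3SEQ; their notes name STAR, edgeR and build GRCm39, with no versions. Day, dose and culture were read from the labels and column names. The members and lists were chosen with earlier results of these data known; the genes named are the 10 members, all genes of lists chosen by function, and the 3 genes most like each member.

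Counts were rounded and tested over the whole table with edgeR 4.0.16 in R 4.3.3 (TMM, at least 10 counts summed over a fit, quasi-likelihood, Benjamini-Hochberg at 0.05), in fits of 9 libraries (days at 0 Gy), 12 (day 7), 12 (day 11) and 24 (both days). Over 11593 genes, libraries of a culture correlated in every pair of groups of a fit after group means were removed (lowest 0.116). Values with the culture as a block are therefore given for members where they change a call or where leaving out 1 library lost it. For lists they are given as counts in several comparisons. Alternatives were DESeq2 1.42.0, no TMM, other filters, unrounded counts, fits of the groups compared alone and leaving out each library. Both tools were tested on simulated data. Replicates were checked for repeated libraries, with the smallest chi-square over 27 pairs at 3.39 per degree of freedom. Python 3.11.15, numpy 2.4.6, scipy 1.17.1 and matplotlib 3.10.9 made the other values, with positions from GENCODE vM39, which held all 10 member symbols and 79.7% of all symbols. The symbol Loricrin was not in the table, and Lor was used.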

Additional observations from a re-analysis of the deposited data

Results flagged for a closer look

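For 2 members the change with 7 Gy was not the same at both days, by a test of the difference itself, the interaction term of the edgeR fit of 24 libraries. For Klk10 the log2 change at day 11 minus that at day 7 was 2.22 (adjusted p 0.00846). For Klk13 it was 2.15 (adjusted p 0.0401), a call lost without any 1 of 8 libraries, as listed with the results. With the culture as a block the Klk13 call held (edgeR adjusted p 0.00168).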

How the results depend on the processing

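Counts of members called kept within 1.5 times their value under unrounded counts and without TMM factors in all 11 comparisons, and in the comparisons of day 11 with day 7 and with day 5 at 0 Gy under every alternative run. From day 5 to day 7 at 0 Gy, 7 members, Asprv1 among them, were called, and 4 to 7 when 1 library was left out, with 4 without the mTG12 library of day 5. Where a count moved, the direction of each called member did not, and the cause was not tested.

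At 2 Gy day 7, 0 became 3 without a filter on low counts, or 2 without Asprv1, whose 0 Gy day 7 libraries chose it. At 4 Gy day 7, 0 became 1 with filterByExpr, 3 without a filter, or 2 without Asprv1, 2 with the culture as a block, or 1 without Asprv1, 1 with the compared groups alone and 0 to 1 leaving out 1 library. At 7 Gy day 7, 1 became 2 with DESeq2, 4 without a filter, 3 with the block and 1 to 3 leaving out 1 library. At 4 Gy day 11, 0 became 2 without a filter and 1 with the block. At 7 Gy day 11, 2 became 5 without a filter, 5 with the block and 0 to 3 leaving out 1 library, with 0 without the 0 Gy library of mTG11 or mTG12. From day 7 to day 11 after 7 Gy the range leaving out 1 library was 4 to 5. For the difference between days, 2 became 4 without a filter and 1 to 3 leaving out 1 library. The block removes differences between cultures. Without a filter the adjusted p of Klk13 at 7 Gy day 7 went from 0.184 to 6.70e-09 with a log2 change of -0.75 in both, so the size of the change was not what moved; the cause was not tested, and no result rests on that setting.

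Of 57 log2 changes tried without a filter, 15 became calls and 0 ceased to be; 3 of the 15 are of Asprv1 with libraries that chose it. Signs reversed for changes near 0. Klk13 from day 5 to day 7 was 0.015, and -0.018 with DESeq2, -0.14 without TMM, -0.053 with the block and -0.27 to 0.31 leaving out 1 library. Klk11 at 7 Gy day 7 was 0.061, and -0.13 to 0.24 leaving out 1 library. The mean of Spink5 at 0 Gy day 5 was 3630 CPM, and 3379 CPM with TMM factors.

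Over all genes the number called differed more widely at low doses: 24, 59, 404, 138 and 7 at 2 Gy day 7 with the fit reported, DESeq2, no filter, the block and the compared groups alone. At 4 Gy day 7, 315 became 1263 without a filter and 1009 with the block, and at 7 Gy day 7, 1345 became 2211 and 2193. At day 11, 0 became 1 with DESeq2, 267 without a filter and 72 with the block at 2 Gy, 1 became 37, 465 and 238 at 4 Gy, and 302 became 1205 without a filter and 1297 with the block at 7 Gy. The difference between days went from 663 to 1234 without a filter and 1156 with the block. Leaving out 1 library gave 8 to 26 at 2 Gy, 125 to 436 at 4 Gy and 705 to 1568 at 7 Gy of day 7, 60 to 368 at 7 Gy day 11 and 1640 to 2855 from day 7 to day 11 after 7 Gy. Percentages of genes called move with these counts.

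Depth limits Klk5, Klk6 and Casp14 at most groups and Klk7 at day 11, where a group held 3.5 counts at 0 Gy, so a change of these genes with dose could pass undetected. With 3 libraries in a group, calls near the threshold can depend on 1 library, as named beside those of the members. Leaving out a library was not run for genes of the other lists. Shared reads make levels of Spink5, Klk11 and Klk7 uncertain. Culture identity with the mice is unknown, and all groups carry the ROCK inhibitor.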
